A study of Mus musculus with 11 samples.

Results

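The 4 genes of calcium/calmodulin-dependent protein kinase II (CaMKII), Camk2a, Camk2b, Camk2d and Camk2g, were followed by their gene symbols in a count table of 54532 genes from mouse lateral habenula. All 4 rows were present and all 4 passed the filter on low counts, which left 19619 genes. The study examined rheumatoid arthritis together with depression, and the mice were a model of arthritis. BALB/c mice aged 3 months were injected with collagen II antibodies, 5 monoclonal clones mixed and given at 50 mg/kg. After 3 days they were given lipopolysaccharide (LPS, 1 mg/kg), and the model is named CAIA, for arthritis induced by collagen antibodies. Controls of the same strain and age received vehicle, so the antibodies, LPS and arthritis cannot be told apart. There were 3 libraries of female controls, 3 of female CAIA, 2 of male controls and 3 of male CAIA. The male controls carry the numbers 1 and 3. Whether each library is a separate animal is not stated in the labels, so p-values reflect the spread among libraries, which may be technical.

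Each library held 25317306 to 29565006 counts. Markers of the lateral habenula were present in every library: the protocadherin gene Pcdh10 stood at 285.9 ± 31.8 CPM (counts scaled to library size after correction for library composition; mean ± SD, n = 11), the receptor gene Gpr151 at 165 ± 23.0, the serotonin receptor gene Htr2c at 191 ± 17.8 and Vwc2l at 27.0 ± 5.28. RNA of neighbouring regions was present too. The summed level of 8 lateral habenula markers was 717 to 894 CPM over the 11 libraries, that of 9 medial habenula markers 558 to 807 CPM and that of 9 thalamus markers 1438 to 2771 CPM. That of 13 choroid plexus markers separated the treatments, at 2690 to 5593 CPM in controls and 248 to 2105 CPM in CAIA. All 12 of 12 markers of hippocampus and cortex were above the count filter and none was at 0 in any library. Their summed level was 427 to 499.8 CPM in female controls, 420.3 to 498 in female CAIA, 368 to 373.5 in male controls and 437 to 574 in male CAIA. The library Female Ctrl 1 stood apart from the other controls. Of the 12 hippocampus and cortex markers, 5 were at their highest in it and 1 (Fibcd1, 95.7 CPM) at its lowest. Male CAIA 2 was highest for 4 of the 12 and lowest for 0, with the highest summed level (574 CPM), and Male CAIA 1 was highest for 2. In Female Ctrl 1 the cortical transcription factor gene Tbr1 was at 43.4 CPM, against 0.760 to 20.3 CPM in the other 10 libraries. The summed level of the list in Female Ctrl 1, 494 CPM, was inside the range of the others. For the CaMKII genes, several values that rest on this library are given with and without it. The TPM of each gene, coefficients of variation, correlations between members and nearest genes are given only with it.

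CaMKII is a serine/threonine kinase that is switched on by calcium-bound calmodulin. Its subunits assemble into large ring-shaped holoenzymes, and autophosphorylation can keep a subunit active after calcium has fallen. Camk2a encodes the alpha subunit, the main forebrain form, which is abundant in excitatory neurons of hippocampus and cortex and central to synaptic plasticity. Camk2b encodes the beta subunit, which also binds filamentous actin and holds the enzyme at the cytoskeleton. Camk2d and Camk2g encode the delta and gamma subunits, which are found in many tissues, delta being the main form in heart. In the lateral habenula, a nucleus that signals aversive outcomes, raised levels of the beta subunit have been tied to depression-like behaviour in rodents.

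The kinase genes resemble each other, so it matters whether reads can be assigned to the right gene. A coding stretch of 60 bases that crosses the junction of exons 5 and 6 is shown for 3 of the genes, from the GENCODE M21 transcripts, 5′ to 3′ on the coding strand. Capitals mark bases that differ from Camk2b.
Camk2b (chr11:5992878-5997927, minus strand): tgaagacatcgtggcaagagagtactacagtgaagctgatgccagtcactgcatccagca
Camk2d (chr3:126767535-126771788, plus strand): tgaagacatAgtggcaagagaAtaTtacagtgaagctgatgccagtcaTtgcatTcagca
Camk2g (chr14:20766211-20770108, minus strand): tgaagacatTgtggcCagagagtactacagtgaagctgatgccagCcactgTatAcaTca

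In this stretch Camk2d differed from Camk2b at 5 of 60 bases and Camk2g at 6. Even so, no run of 50 bases in any transcript of one CaMKII gene occurred in a transcript of another. That held for 7516 such words of Camk2a, 9443 of Camk2b, 23065 of Camk2d and 6881 of Camk2g. The longest identical runs between members were 34 bases for Camk2a with Camk2b and with Camk2d, outside the coding sequence, 29 coding bases for Camk2g with Camk2a and with Camk2b, and 23 coding bases for Camk2d with Camk2b and with Camk2g. Against all other annotated genes, 0.293% of the words of Camk2a and 0.159% of those of Camk2b recurred, and 0 of those of Camk2d and Camk2g. How the authors' counting treated reads with several matches is not given in the sources used here.

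The genes lie on 4 chromosomes of the mouse genome (GRCm38; spans from GENCODE M21). Camk2a (ENSMUSG00000024617) spans chromosome 18, 60925618 to 60988152, on the plus strand. Camk2b (ENSMUSG00000057897) spans chromosome 11, 5969644 to 6066362, on the minus strand. Camk2d (ENSMUSG00000053819) spans chromosome 3, 126596302 to 126846326, on the plus strand, and Camk2g (ENSMUSG00000021820) spans chromosome 14, 20734875 to 20794088, on the minus strand. Each value below is the sum over all annotated exons of a gene, so it does not separate the 7 transcripts annotated for Camk2a, 15 for Camk2b, 28 for Camk2d and 17 for Camk2g. No other annotated gene shares exon bases with any of the 4.

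In control tissue, Camk2a gave the most reads per length of the 4 genes and Camk2d the fewest. On the TPM scale (counts divided by the length of all exons of a gene and scaled to the same total in every library) Camk2a stood at 408 ± 208 (mean ± SD, n = 5), Camk2b at 248 ± 14.4, Camk2g at 98.3 ± 11.3 and Camk2d at 32.1 ± 3.27. As shares of the CaMKII reads per kilobase, the alpha gene held 49.8% ± 9.40 (SD, n = 5; 43.2 to 65.7%), beta 33.0% ± 6.68 (21.9 to 38.2%), gamma 12.9% ± 1.68 (10.0 to 14.3%) and delta 4.33% ± 1.14 (2.37 to 5.13%). The highest alpha share, 65.7%, and the lowest beta share, 21.9%, both came from Female Ctrl 1. Without that library the control shares were 45.8% for Camk2a, 35.8% for Camk2b, 13.6% for Camk2g and 4.82% for Camk2d.

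The order alpha, beta, gamma, delta was found in 11 of 11 libraries. The exact sign-flip permutation test of each neighbouring pair gave a two-sided p of 0.0009766 over the 11 libraries, and 0.0625 over the 5 controls alone, each the smallest p the number of libraries allows. The pairs were ordered by the control means of these same libraries. The test takes the gene lengths as given, so its p does not cover the choice of length. The alpha to beta step was the narrowest, with a mean log2 ratio of 0.60 ± 0.58 (SD, n = 5 controls; 0.18 to 1.59). The beta to gamma step was 1.34 ± 0.15 and the gamma to delta step 1.62 ± 0.27.

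These proportions depend on the length each gene is given. All exons of Camk2d cover 22.493 kb of sequence, against 7.465 kb for Camk2a, 9.125 kb for Camk2b and 6.401 kb for Camk2g, while the longest coding sequences are similar at 1599, 1467, 1998 and 1695 bases. Per coding length, Camk2d held 11.8% of the control reads and Camk2g 9.46%, and delta was above gamma in 10 of 11 libraries (mean log2 ratio 0.29 ± 0.19, n = 11; exact sign-flip permutation p = 0.003906). Per length of the principal transcripts, a choice made after seeing the data, Camk2b held 40.01% and Camk2a 39.3%. Beta was then above alpha in 7 of 11 libraries, and the difference was within the spread between libraries (mean log2 ratio 0.08 ± 0.40, n = 11; exact sign-flip permutation p = 0.526). The ranking of Camk2a against Camk2b and of Camk2g against Camk2d therefore could not be settled from gene counts alone, whereas alpha and beta were each above gamma and delta on all 3 length scales.

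**Figure D1:**
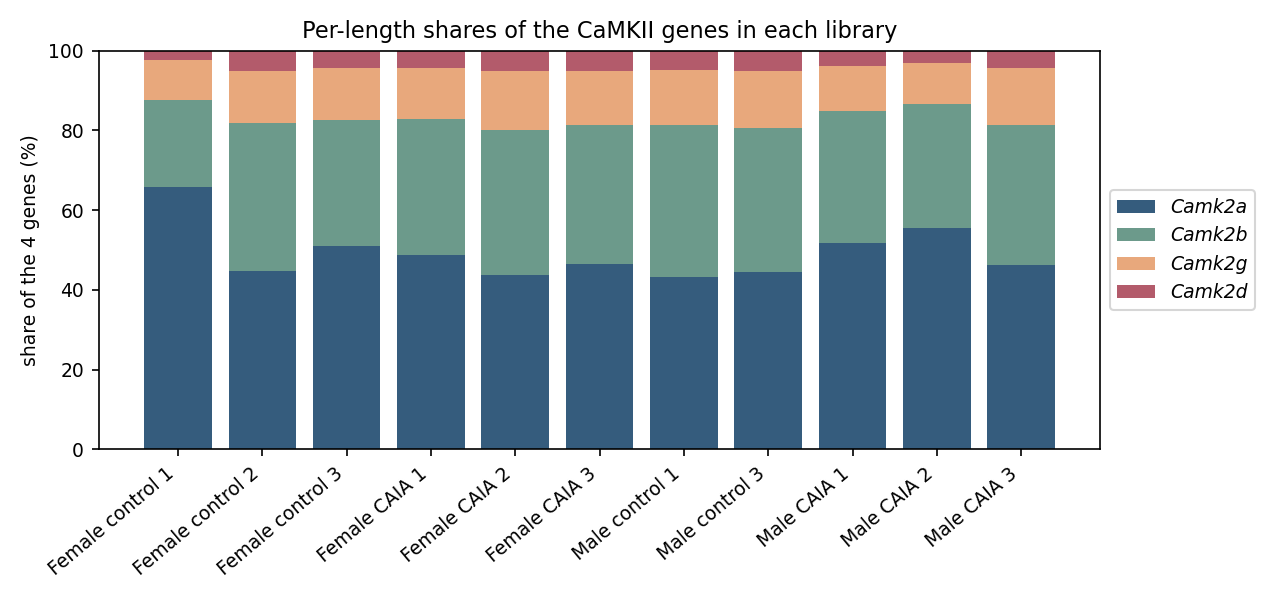
Share of each CaMKII gene in the CaMKII reads per kilobase of exon sequence (percent, vertical axis) in each of the 11 libraries (horizontal axis, by group). Camk2a held 43.2% to 65.7% of each library and was largest in Female Ctrl 1, where Camk2b was at its lowest, 21.9%.

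CAIA and control tissue were compared with both sexes weighted equally, to ask whether any CaMKII gene differed in arthritic mice. With a threshold of 0.05 on the adjusted p of edgeR, 0 of 4 CaMKII genes passed, and neither DESeq2 nor limma-voom called any. Over all 19619 genes tested, 0.596% passed (117 genes, 96.6% lower in CAIA, or 1 gene with choroid plexus markers as a covariate). At an unadjusted p under 0.05 in edgeR there were 0 of 4 CaMKII genes and 6.36% of all genes. Without Female Ctrl 1 these were 2 of 4, Camk2a and Camk2g, and 6.35% of all genes. Their unadjusted edgeR p-values were 0.0203 and 0.0369 there, and again 0 of 4 passed the adjusted threshold. All 4 fitted differences were small and positive. None of the 4 genes had control and CAIA libraries that did not overlap, as 1.18% of all genes tested did.

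For Camk2b, the gene with the lowest p of the 4, female controls stood at 687, 653 and 563 CPM (replicates 1, 2 and 3) and female CAIA at 682, 613 and 609 CPM. Male controls stood at 647 and 577 CPM and male CAIA at 755, 779 and 643 CPM. The 2 highest libraries were male CAIA 1 and 2, the lowest was Female Ctrl 3, and the remaining 8 libraries lay between them with both treatments mixed. The log2 fold change in CAIA was 0.12 ± 0.08 (SE; 95% interval -0.06 to 0.31; edgeR adjusted p = 0.882), a fold of 1.09.

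Camk2a varied most between libraries. Female controls stood at 1689, 643 and 738 CPM and female CAIA at 802, 601 and 662 CPM. Male controls stood at 599.9 and 579 CPM and male CAIA at 965, 1143 and 696 CPM. The coefficient of variation over the 11 libraries was 40.2%, against 10.3% for Camk2b, 9.91% for Camk2g and 6.26% for Camk2d. The log2 fold change was 0.05 ± 0.27 (SE; 95% interval -0.58 to 0.68; edgeR adjusted p = 0.991). Without Female Ctrl 1 it was 0.33, with an adjusted p of 0.593 in edgeR, and the control mean moved from 849.7 to 639.9 ± 70.4 CPM (n = 4).

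Camk2g followed a similar layout at a lower level. It stood at 221, 162 and 161.5 CPM in female controls, 182, 174 and 166 CPM in female CAIA, 165 and 160.2 CPM in male controls and 181, 182.5 and 184 CPM in male CAIA. Apart from Female Ctrl 1, every control was below every CAIA library, a layout looked for after seeing the data and shared by 0.403% of all genes tested. The log2 fold change was 0.05 ± 0.08 (SE; 95% interval -0.14 to 0.24; edgeR adjusted p = 0.961), and 0.14 without Female Ctrl 1, where it did not pass either.

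Camk2d was the steadiest of the 4 in CPM over the 11 libraries. In TPM its coefficient of variation was 8.571%, above those of Camk2g (7.591%) and Camk2b (7.645%). The levels of Camk2d were 184, 221 and 187 CPM in female controls, 212.5, 215 and 215 CPM in female CAIA, 199 and 202 CPM in male controls and 211, 190.4 and 197 CPM in male CAIA. The highest and the lowest library were both female controls, and the CAIA libraries lay inside their range. The log2 fold change was 0.06 ± 0.06 (SE; 95% interval -0.10 to 0.21; edgeR adjusted p = 0.949).

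**Figure D2:**
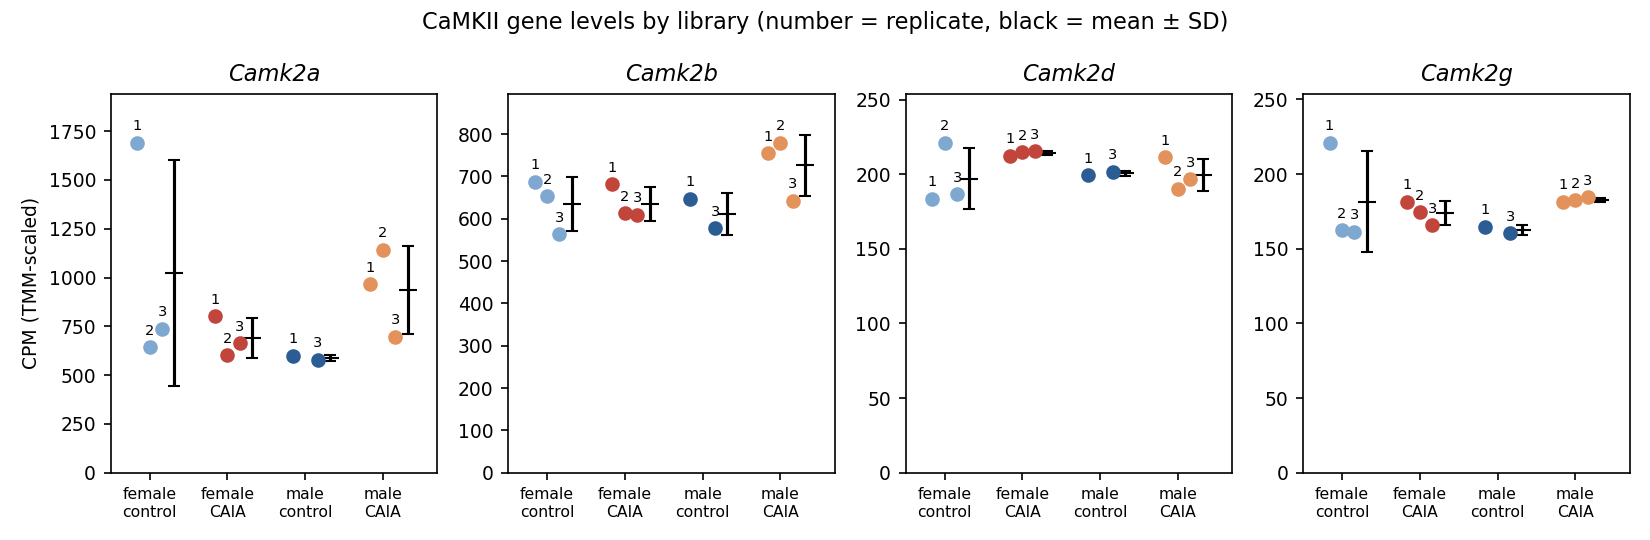
CPM (vertical axis) of Camk2a, Camk2b, Camk2d and Camk2g in each library, by sex and treatment, with replicate numbers at the points and the mean ± SD of each group in black. Camk2a in Female Ctrl 1 (1689 CPM) lies above all other libraries, and the groups overlap except for Camk2a and Camk2g in males.

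The point estimates of the 2 sexes pointed in different directions for Camk2a and Camk2g, and none passed. Those of Camk2d differed in sign too, with a male value near 0 (-0.007273). In females, 0 of 4 CaMKII genes passed, against 0.260% of all genes tested, and 0 of 4 had an unadjusted p under 0.05 in edgeR, against 5.22%. The female groups overlapped for all 4 genes, whereas 11.5% of all genes tested had female groups apart. Camk2a was at a log2 fold change of -0.57 ± 0.36 (SE; edgeR adjusted p = 1), Camk2b at 0.00 ± 0.11, Camk2d at 0.12 ± 0.09 and Camk2g at -0.06 ± 0.11. Without Female Ctrl 1 the value for Camk2a in females was 0.00452 and that for Camk2g was 0.11, so the negative values of both genes rested on that library. For Camk2b the 95% interval in females was -0.25 to 0.25.

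In males, 0 of 4 passed, as did 0% of all genes tested, with 5.63% of all genes and 0 of the 4 at an unadjusted p under 0.05 in edgeR. Camk2a was at 0.67 ± 0.41 (log2 fold change ± SE; adjusted p = 0.914), Camk2b at 0.25 ± 0.12 (95% interval -0.03 to 0.53; adjusted p = 0.903), Camk2g at 0.17 ± 0.12 and Camk2d at -0.01 ± 0.10. The fit shares its estimate of spread over the 4 groups, so Female Ctrl 1 enters these SEs too. Without that library Camk2a in males was at 0.66 ± 0.18 (edgeR unadjusted p = 0.00283, adjusted p = 0.442). Camk2b, Camk2g and Camk2d then had unadjusted edgeR p-values of 0.0576, 0.0705 and 0.914. For Camk2a and Camk2g all 3 male CAIA libraries were above both male controls. Over all genes tested, 17.7% had male groups that did not overlap and 9.18% had every CAIA library above both controls, so such a layout was common with 2 controls. For Camk2b the male groups overlapped, since male CAIA 3 at 643 CPM lay just under Male Ctrl 1 at 647 CPM.

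The difference between the sexes in the CAIA response was tested as an interaction, and 0 of 4 genes and 0% of all genes passed in edgeR. At an unadjusted p under 0.05 there were 0 of 4 and 4.11% of all genes. Camk2a had the largest value of the 4, -1.24 ± 0.54 (females minus males, log2 ± SE; adjusted p = 0.978). Camk2b was at -0.25 ± 0.16, Camk2g at -0.23 ± 0.16 and Camk2d at 0.13 ± 0.13. Without Female Ctrl 1 the value of Camk2a was -0.66 ± 0.25 (edgeR unadjusted p = 0.021, adjusted p = 0.982). No other CaMKII gene had an unadjusted p under 0.05 in that fit. Female against male tissue, averaged over treatment, also gave 0 of 4, against 0.0459% of all genes, and 0 of 4 against 6.76% at an unadjusted p under 0.05 in edgeR. The log2 values were 0.18 ± 0.27 for Camk2a, -0.07 ± 0.08 for Camk2b, 0.04 ± 0.06 for Camk2d and 0.04 ± 0.08 for Camk2g.

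**Figure D3:**
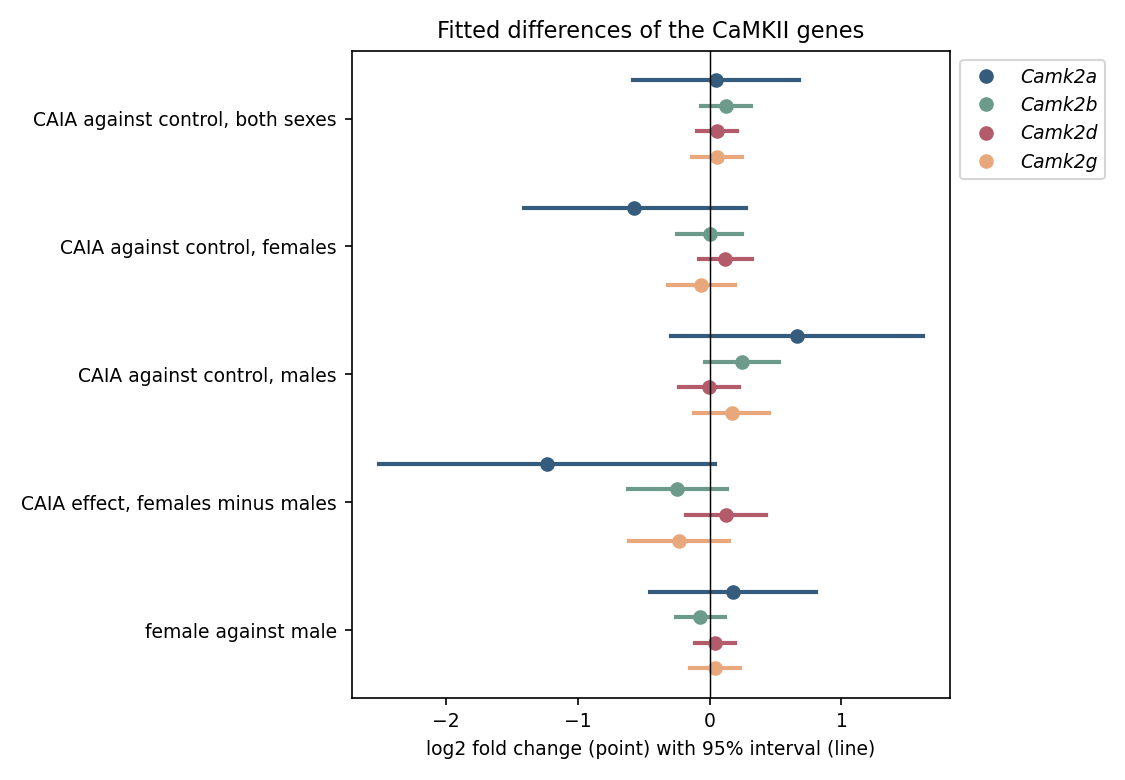
Log2 fold change of each CaMKII gene (horizontal axis) with its 95% interval in the comparisons of CAIA with control over both sexes, within females, within males, their interaction, and of female with male tissue. Every interval crosses 0, and those of Camk2a are the widest.

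The balance of beta and alpha subunits was then taken as a ratio within each library, which cancels library scaling. The log2 ratio of Camk2b to Camk2a per kilobase was -1.59, -0.27 and -0.68 in female controls and -0.52, -0.26 and -0.41 in female CAIA. It was -0.18 and -0.29 in male controls and -0.64, -0.84 and -0.40 in male CAIA. In males both controls had a higher beta to alpha ratio than all 3 CAIA libraries, while the female groups overlapped. The treatment difference, averaged over the sexes, was 0.03 (exact permutation test within sex, 200 arrangements, two-sided p = 0.93). It was 0.45 in females (exact permutation p = 0.3, where the smallest possible is 0.1) and -0.39 in males (exact permutation p = 0.2, where the smallest that 10 arrangements allow is 0.1). Without Female Ctrl 1 the averaged difference was -0.16 (exact permutation p = 0.32). The shares themselves were alike on average: 48.8% ± 4.31 for Camk2a, 34.1% ± 1.87 for Camk2b, 12.9% ± 1.72 for Camk2g and 4.28% ± 0.783 for Camk2d in CAIA (SD, n = 6). The 4 genes together came to 786 ± 222 TPM in controls (n = 5) and 782 ± 105 TPM in CAIA (n = 6), with Female Ctrl 1 at 1179 TPM. Without it the controls came to 688 ± 39.9 TPM (n = 4).

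In bulk tissue, fewer cells of a type and less RNA per cell cannot be told apart, so the levels of the CaMKII genes were set beside those of marker lists for 11 cell types and neighbouring regions. A list's level is the mean log2 CPM of its tested genes. The hippocampus and cortex level was 4.463, 3.071 and 3.805 in female controls, 3.859, 3.405 and 3.194 in female CAIA, 2.639 and 2.809 in male controls and 3.861, 4.082 and 3.652 in male CAIA. It was highest in Female Ctrl 1, lowest in both male controls, and higher in all male CAIA libraries than in the male controls. Camk2a had the same layout.

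Across the 11 libraries, Camk2a rose with the hippocampus and cortex level with Pearson's r = 0.867 (permutation p = 5e-05, adjusted p = 0.0022 over 44 relations of 4 genes with 11 lists) and Spearman's rho = 0.964 (permutation p = 1e-05, adjusted p = 0.00044). It was 0.896 without the 2 libraries farthest from the median of that level, and 0.874 within groups of sex and treatment. Camk2g had r = 0.799 (permutation p = 0.00178, adjusted p = 0.0392) and rho = 0.736 (permutation p = 0.0129, adjusted p = 0.189, which did not pass), with r = 0.806 without the 2 farthest libraries and 0.785 within groups. Camk2b had r = 0.515 (permutation p = 0.106, adjusted p = 0.467), and Camk2d had r = -0.484 (adjusted p = 0.512), so neither relation passed the correction. For Camk2d the value was -0.787 without the 2 farthest libraries and -0.756 within groups. Without Female Ctrl 1 (n = 10), Camk2a had r = 0.832 (permutation p = 0.00223, adjusted p = 0.0981) and rho = 0.952 (permutation p = 0.00016, adjusted p = 0.00704), so Pearson's r no longer passed the correction. Camk2g then had r = 0.722 (permutation p = 0.0226, adjusted p = 0.277). These p-values come from resampling the libraries without regard to group.

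With the hippocampus and cortex level added to the edgeR fit, the CAIA value of Camk2a over both sexes turned from 0.05 to -0.30 and that in males from 0.67 to -0.43. The interaction turned from -1.24 to 0.25. None of these passed. In that fit Camk2b was the 1 gene of the 4 that kept its sign in all 3 CAIA comparisons. Its value in females was 0.000293 ± 0.105 (SE) without the covariate, too near 0 for a sign to be read. That sign was kept in 11 of 23 refits. The level is itself measured in the same libraries and differs between the male groups, so its part in the values was not tested. Of the other 40 relations, none passed the correction for Pearson's r. The 2 with the highest r in size were Camk2g with microglia markers (r = 0.723, adjusted permutation p = 0.158) and Camk2b with oligodendrocyte markers (r = -0.716, adjusted permutation p = 0.158). Camk2d had r = 0.567 with thalamus markers (adjusted permutation p = 0.408), and 0.718 within groups.

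**Figure D4:**
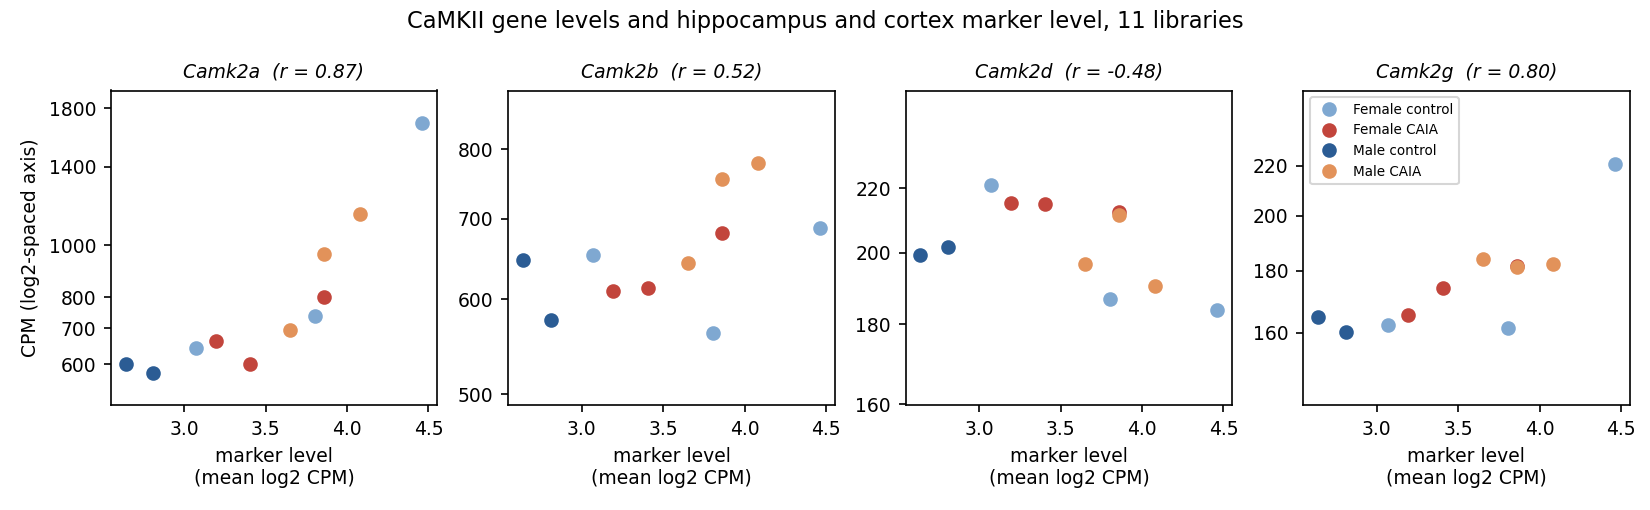
CPM of each CaMKII gene on a log2 scale (vertical axis) against the mean log2 CPM of 12 hippocampus and cortex markers (horizontal axis), 1 point for each of the 11 libraries. Camk2a and Camk2g increase along the axis (r = 0.867 and 0.799), and Female Ctrl 1 lies at the right end.

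The members also differed in which genes tracked them. Between members, r over the 11 libraries was 0.87 for Camk2a with Camk2g, 0.644 for Camk2a with Camk2b, 0.555 for Camk2b with Camk2g, -0.04 for Camk2b with Camk2d, -0.435 for Camk2d with Camk2g and -0.56 for Camk2a with Camk2d. All of these values share library composition and depth and are given as a description. They and the values below include Female Ctrl 1, where Camk2a and Camk2g were both at their highest (1689 and 220.8 CPM). Among 10586 genes whose mean was 10 CPM or more, the 5 nearest to Camk2a were Pcdhgc5 (r = 0.971), the formin gene Inf2 (0.967), Synpo, which encodes the spine protein synaptopodin (0.964), the protease gene Bmp1 (0.955) and the actin oxidase gene Mical2 (0.954). Nearest to Camk2b were Auts2 (0.909), Pgbd5 (0.872), the lipid kinase gene Pip5k1a (0.871), Camkk1, which encodes a kinase that activates other CaM kinases (0.867), and Brpf1 (0.85). Nearest to Camk2d were Slitrk6 (0.949), Wdr6 (0.946), Slc17a6, the vesicular glutamate transporter of many subcortical neurons (0.94), Ythdf1 (0.933) and Ypel2 (0.932). Nearest to Camk2g were Gm10419 (0.96), Hipk4 (0.951), the Rac regulator gene Chn1 (0.943), Extl1 (0.937) and Mical2 (0.929). Mical2 was the 1 gene found among the 5 nearest of both Camk2a and Camk2g.

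The genes that act on CaMKII or are acted on by it were read from 7 lists with 64 genes in all, and all 64 passed the count filter. Over both sexes 1 of 64 passed in edgeR (lower in CAIA), against 0.596% of all genes tested (0.576% lower), and 38 of 64 had a positive fold change, against 9819 of 19619. At an unadjusted p under 0.05 in edgeR there were 7 of 64, against 6.36% of all genes. In females, in males, in the interaction and between the sexes 0 of 64 passed. Unadjusted, there were 4 of 64 in females (5.22% of all genes), 10 of 64 in males (5.63%), 6 of 64 in the interaction (4.11%) and 2 of 64 between the sexes (6.76%). The list medians over both sexes lay between -0.16 and 0.04 (log2), against 0.000175 for all genes tested.

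Upstream of the kinase, genes of the calcium sensor calmodulin did not pass, with Calm2 at a log2 fold change of 0.01 ± 0.09 and Calm3 at -0.03 ± 0.09. Of the 6 genes of calmodulin-buffering proteins, 0 passed. Nrgn encodes neurogranin, which holds calmodulin in forebrain neurons, and was at 591 CPM in Female Ctrl 1 and 72.6 to 224 CPM elsewhere. Its log2 fold change was -0.12 ± 0.51, and 0.51 ± 0.23 without that library (edgeR adjusted p = 0.822). Gap43, which encodes a growth cone protein, was at 0.06 ± 0.11, Pcp4 at -0.10 ± 0.09 and Pcp4l1 at -0.10 ± 0.10.

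The 2 genes of endogenous CaMKII inhibitors did not pass. Camk2n1 was at 1517, 789 and 611 CPM in female controls, 727.5, 705 and 768 CPM in female CAIA, 908 and 637 CPM in male controls and 687.5, 685 and 717 CPM in male CAIA. Controls spanned the whole range of CAIA libraries, and the log2 fold change was -0.28 ± 0.21 (edgeR adjusted p = 0.92), and -0.04 ± 0.10 without Female Ctrl 1. Camk2n2 was at -0.05 ± 0.11.

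Of the 12 genes of other CaM kinases and their relatives, 0 passed and 7 were positive. Camk1, a kinase of axon growth, had the lowest p of the list at -0.20 ± 0.07 (edgeR adjusted p = 0.53). The 2 CaM kinase kinase genes were at 0.21 ± 0.11 (Camkk1) and -0.23 ± 0.24 (Camkk2), and Camkk2 was at 179 CPM in Female Ctrl 1 against 63.9 to 94.9 CPM elsewhere, with a log2 fold change of 0.04 ± 0.09 without that library. Camkk1 was at 98.3 CPM in Female Ctrl 1, the highest control. Its value without that library was 0.325 ± 0.08 (edgeR unadjusted p = 0.0012, adjusted p = 0.123). Camk4, a nuclear kinase of the same family, was at -0.07 ± 0.20, Camk1d at 0.13 ± 0.13, Camk1g at 0.08 ± 0.15, the pseudokinase gene Camkv at -0.02 ± 0.11 and Pnck at 0.10 ± 0.07.

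Among 12 phosphatase genes and their regulators, 1 passed. Ppp1r1b encodes DARPP-32, which inhibits protein phosphatase 1 when phosphorylated. It was at 86.99, 69.7 and 70.8 CPM in female controls, 52.9, 55.3 and 54.5 CPM in female CAIA, 85.7 and 72.7 CPM in male controls and 52.2, 67.8 and 51.6 CPM in male CAIA. All 6 CAIA libraries were below all 5 controls, as for 1.01% of all genes tested. Ppp1r1b fell by 0.48 ± 0.09 (log2; edgeR adjusted p = 0.0221). Choroid plexus markers were also lower in CAIA, at a summed level of 2690 to 5593 CPM in controls and 248 to 2105 CPM in CAIA. With their level in the fit, Ppp1r1b was at -0.22 (adjusted p = 0.999 in edgeR). That level separates the treatments, so treatment and choroid plexus RNA cannot be told apart there. The call was also lost without any of the female CAIA libraries, without Male Ctrl 1, and without Male CAIA 1 or 3 (edgeR adjusted p 0.0578 to 0.129), and it held without each of the other 5 libraries.

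The CaMKII phosphatase genes Ppm1e and Ppm1f were at 0.15 ± 0.08 and -0.04 ± 0.06. The calcineurin catalytic gene Ppp3ca was at 0.18 ± 0.12 over both sexes. In males it was at 311 and 290.3 CPM in controls and 466.5, 474 and 413 CPM in CAIA, and its log2 fold change there of 0.58 ± 0.18 did not pass (edgeR adjusted p = 0.622). Its regulatory subunit gene Ppp3r1 was at 0.05 ± 0.08. Ppp3ca was at its highest, 563 CPM, in Female Ctrl 1. Without that library Ppp3ca was at 0.30 ± 0.085 over both sexes (edgeR unadjusted p = 0.00338, adjusted p = 0.239). In males it was then at 0.58 ± 0.12 (edgeR unadjusted p = 0.000295, adjusted p = 0.284).

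Of 19 genes of postsynaptic partners and substrates, 0 passed, 11 were positive and 4 had an unadjusted p under 0.05, against 6.36% of all genes tested. Tiam1, which encodes a Rac activator that binds CaMKII, had the lowest p of the list at 0.25 ± 0.09 (edgeR adjusted p = 0.519). Gria1, the AMPA receptor subunit phosphorylated by CaMKII, averaged 418 ± 45.7 CPM (SD) over 5 controls and 469.8 ± 31.99 over 6 CAIA libraries, a log2 fold change of 0.18 ± 0.08 (edgeR adjusted p = 0.75). Grin2b, the NMDA receptor subunit that anchors the active kinase, was at 0.13 ± 0.19, and the scaffold genes Dlg4, Shank3 and Lrrc7 were at -0.08 ± 0.09, -0.09 ± 0.15 and 0.09 ± 0.22. Of 10 presynaptic and cytoskeletal substrate genes 0 passed, and Map2, which encodes a dendritic microtubule protein and had the lowest p of them, was at 0.12 ± 0.10.

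**Figure D5:**
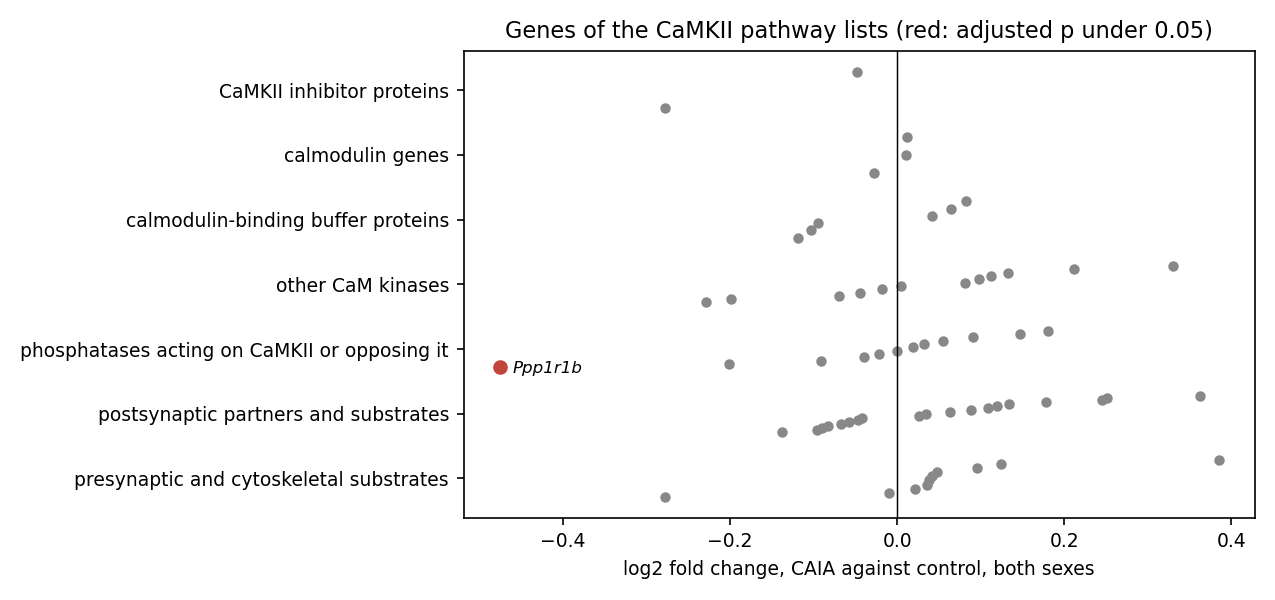
Log2 fold change, CAIA against control over both sexes (horizontal axis), of the 64 genes in 7 lists around CaMKII (rows), 1 point per gene. Most points lie close to 0, and Ppp1r1b at -0.48 is the 1 gene that passed.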

How the data were processed

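The submitters' processing notes list featureCounts 1.5.0-p3, HISAT2 2.0.5, cutadapt 1.9.1 and the build GRCm38. The deposited values are whole-number counts per gene, with no normalization by the authors. Neither strand setting nor annotation release is given in the sources used here. Gene lengths were taken from GENCODE M21 (54495 of 54532 identifiers matched), because the planned length column was not in the file. The longest coding sequence there stood in for protein length. TPM and shares were computed from the counts and these lengths.

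After filterByExpr by group, counts were scaled with TMM and fitted as 4 group means (edgeR 4.0.16, glmQLFit with robust estimation, glmQLFTest, R 4.3.3). Benjamini-Hochberg adjustment ran over 19619 genes, with 0.05 as threshold. A standard error is |log2 fold change|/√F, and 95% intervals use the 7 residual degrees of freedom. Ratios were tested by exact permutation, marker relations with 100000 resamples. The fit was also run on simulated counts with known changes. That simulation held no shift in tissue composition and no outlying library, so it does not bear on either. Alternatives were other scalings, filters, DESeq2 1.42.0, limma-voom (limma 3.58.1), marker covariates, replicate blocks, each sex alone and each library left out. Leaving out a male control leaves a lone library, assumed to vary like the other groups.

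The members and lists were chosen with earlier results of these data known. Named genes were the 4 members, 26 set genes of the lists, any list gene that passed, the gene of each list with the lowest p over both sexes, and the 5 genes most like each member. Some of these are not reported here. Libraries of a group differed by more than sampling noise (chi-square over its degrees of freedom 7.09 to 30.8). Library depth ran from 25317306 to 29565006 counts. The fits and marker relations without the library Female Ctrl 1 alone were chosen after seeing the data, except where they leave out each library in turn.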

Additional observations from a re-analysis of the deposited data

Results flagged for a closer look

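In 78 groups of 5 control or 6 CAIA libraries, covering the levels of the CaMKII and named pathway genes, the 4 CaMKII shares and the ratio of Camk2b to Camk2a, 7 had an end library far from the rest by Dixon's test. Chance flags about 1 in 20 groups. Of these, 4 came from Female Ctrl 1, the library with the highest mean log2 level of hippocampus and cortex markers (4.463), though not the highest summed level (494 CPM, against 368 to 574 CPM elsewhere): Camk2a was at 1689 CPM against 579 to 738 CPM in the other 4 controls, Camk2g at 220.8 CPM against 160.2 to 165 CPM, Nrgn at 591 CPM against 72.6 to 159 CPM and Camkk2 at 179 CPM against 63.9 to 88.8 CPM. The part of tissue composition in these values was not tested.

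Pnck was high in Male Ctrl 1, at 101 CPM against 72.2 to 75.7 CPM in the other controls. Shank3 was low in Female Ctrl 3, at 379 CPM against 627 to 713 CPM. Ppp1r1b was high in Male CAIA 2, at 67.8 CPM against 51.6 to 55.3 CPM in the other 5 CAIA libraries, and that library also had the highest summed choroid plexus level of the CAIA libraries, 2105 CPM.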

How the results depend on the processing

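Over 448 refits of the 20 fold changes (4 genes in 5 comparisons), 400 kept direction and side of the threshold, 45 changed direction without passing and 3 passed. The 3 were Camk2a with no count filter, at -0.567 in females, 0.662 in males and -1.23 in the interaction, so 1 CaMKII gene passed in each of these comparisons. There edgeR estimated infinite prior degrees of freedom, so the gene's own spread was not used, where the filtered fit gave Camk2a 1.34. No CaMKII gene passed in any other refit. With the filter removed, 470 genes passed over both sexes (61.9% lower, against 117 and 96.6%), 452 in females (main value 51), 423 in males (0), 316 in the interaction (0) and 278 between the sexes (9). DESeq2 called 222, 171, 71, 2 and 23. Each sex fitted alone gave 108 genes in females and 43 in males. With the hippocampus and cortex covariate the count was 37 over both sexes and 2 in females, with thalamus 20 in females, and with choroid plexus 1 over both sexes and 0 in females. Of the 64 pathway genes, 3, 7, 7, 5 and 2 passed in the 5 comparisons with no count filter, 1 passed in females with DESeq2 and without Male CAIA 2, and 0 over both sexes with the choroid plexus covariate.

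With hippocampus and cortex markers as a covariate, Camk2a turned to -0.305 over both sexes, -0.43 in males, 0.25 in the interaction and -0.189 between the sexes. Camk2g turned to -0.0526 over both sexes, 0.0246 in females, -0.13 in males, 0.154 in the interaction and -0.0514 between the sexes, and Camk2d to 0.171 in males and -0.0921 in the interaction. With choroid plexus markers, Camk2a, Camk2d and Camk2g turned to -0.121, -0.0795 and -0.108 over both sexes, and Camk2b and Camk2d to -0.0595 and -0.0481 in females. With neuron markers, Camk2a and Camk2g turned to -0.0873 and -0.00891 over both sexes and to -0.00297 and -0.013 between the sexes, and Camk2b to -0.0454 in females. With thalamus markers, Camk2b was at -0.0461 in females and Camk2d at 0.0208 in males. Camk2b in females, near 0 in the edgeR fit, was also below 0 with RLE factors (-0.000519), upper quartile factors (-0.00789), a minimum of 1 CPM (-0.00908) and DESeq2 (-0.000507). None of these values passed, and the cause was not tested.

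Leaving out each library in turn gave, over both sexes, -0.0759 to 0.333 for Camk2a, and in females -0.814 to 0.00452 for Camk2a, -0.0843 to 0.0696 for Camk2b and -0.146 to 0.11 for Camk2g. Camk2d in males ran from -0.0543 to 0.0167. Between the sexes the ranges were -0.114 to 0.295 for Camk2a, -0.0121 to 0.0637 for Camk2d and -0.0455 to 0.0868 for Camk2g. The ratio of Camk2b to Camk2a ran from -0.1588 to 0.1709, and with males alone it was -0.3924. The count of all genes passing ran from 43 (without Female CAIA 3) to 180 (without Male Ctrl 3, 43.3% lower) over both sexes, from 0 (without Female CAIA 1, 2 or 3) to 104 (without Male CAIA 2) in females and from 0 to 142 (without Male Ctrl 3) in males.

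Same-numbered libraries did not deviate together (r -0.0862 to 0.0224 in females, -0.206 and 0.0317 in males), so the numbers were not taken as pairs. With a replicate block, Camk2d in males was at 0.024, the ratio of Camk2b to Camk2a at 0.1531, 0 CaMKII genes passed, and the count of all genes was 82 in females, 31 in males and 126 over both sexes.

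Control shares moved with the length used: Camk2a 39.33% and Camk2b 40.01% per principal transcript. Camk2d was at 11.35% with no length, 11.83% per coding length and 9.106% per principal transcript, and Camk2g at 9.64% with no length and 9.457% per coding length. Each CaMKII gene had 4136 or more counts in every library.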
